A study of Mus musculus with 19 samples.

Results

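Nitric oxide, endothelin and natriuretic peptides set the tone and permeability of blood vessels, and 8 genes of these systems were followed here over 7 groups of sorted mouse endothelial cells. They are Nos3, Gucy1a1 and Gucy1b1 of nitric oxide signalling, Edn1, Ece1 and Ednrb of endothelin signalling, and Npr1 and Npr3, receptors of natriuretic peptides. The genes were chosen by symbol with earlier results of these data known, so their counts and medians against all genes are a description. Each was measured by the 1 probe set that the platform annotation ties to that symbol alone. They make up 8 of the 19938 genes measured on the arrays.

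All RNA came from BALB/c mice, an inbred strain, aged 6 to 8 weeks, with both sexes mixed equally in each sample and no treatment named in the labels. High endothelial cells (HEC) form the wall of the venules where lymphocytes cross from blood into lymphoid tissue, and they were compared with sorted capillary endothelial cells of each tissue. Peyer's patches, lymphoid follicles of the gut wall, gave 3 HEC and 3 capillary arrays. From mesenteric lymph nodes, which receive the lymph of the gut, there were 4 HEC and 2 capillary arrays, and 2 of these HEC samples were sorted as MAdCAM1+/PNAd+ and 2 as MAdCAM1+. From peripheral lymph nodes there were 4 HEC and 3 capillary arrays. MAdCAM1 is an adhesion protein of mucosal venules that binds a gut-homing integrin, and PNAd is a set of sulfated sugars that L-selectin recognises. The gates of the other sorts are not given in the sources used here, and neither is whether replicate arrays are of different animals or sorts. The p-values then measure the spread between these arrays, which may be technical.

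In endothelium, nitric oxide is made by the synthase that Nos3 encodes. It acts on soluble guanylate cyclase, a heterodimer whose subunits include the products of Gucy1a1 and Gucy1b1, and the cyclic GMP made there relaxes vascular smooth muscle. Endothelin-1, from Edn1, is a strong vasoconstrictor that the protease encoded by Ece1 cuts from its precursor, and the type B receptor encoded by Ednrb clears it from blood and, on endothelial cells, leads to release of nitric oxide. Npr1 encodes the receptor for atrial and B-type natriuretic peptides and is itself a guanylate cyclase, whereas the product of Npr3 binds natriuretic peptides without a cyclase domain and removes them.

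Values are log2 signals that the authors centred for each probe set on a baseline that is not stated, so a value compares arrays for 1 gene and says nothing on whether the gene was detected or how its level compares with that of another gene. Differences are log2 values of the first-named group minus the second, followed by the SE from a linear model of all 19 arrays (limma), and adjusted p-values are two-sided, corrected by Benjamini-Hochberg over the 19938 genes of each comparison, with a threshold of 0.05. The sorts carried the markers of their labels: the mean centred log2 signal of 8 high endothelial genes was 2.92 to 3.56 on HEC arrays and -0.81 to 1.10 on capillary arrays, and that of 7 capillary genes was -1.01 to -0.31 on HEC arrays and 2.88 to 3.78 on capillary arrays. The mean of 11 pan-endothelial genes was -0.21 to 0.38 on HEC arrays and 0.40 to 0.57 on capillary arrays, with 1 higher and 7 lower in HEC over the mean of tissues, and the part of this shift in the differences given below was not tested. Peripheral capillary arrays 1 and 2 stood apart from the other capillary arrays in the high endothelial list, at 1.10 and 0.91, and array 2 also had the highest mean signal of all 19 arrays for 12 pericyte and smooth muscle genes (0.99), 5 lymphatic endothelial genes (1.15), 5 myeloid genes (1.14) and 7 fibroblastic stroma genes (0.49). In sorted bulk samples, fewer cells of a type and less RNA per cell cannot be told apart.

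Over the mean of the 3 tissues, HEC had lower signal than capillary cells for Ednrb, Npr3, Nos3, Edn1, Ece1 and Gucy1b1. Npr1 had higher signal in HEC. Thus 6 of the 8 genes were lower and 1 was higher in HEC, where 33.9% of all genes passed (18% higher and 15.9% lower). The median difference of the 8 genes was -0.912, against -0.014 over all genes. Gucy1a1, the eighth, had opposite differences in different tissues and a mean difference of -0.01 ± 0.09. For Ednrb, Npr3, Nos3, Ece1 and Npr1, the 11 HEC arrays did not overlap the 8 capillary arrays. How many of all genes separate the arrays in this way was not counted. In Peyer's patches 2 of the 8 were higher and 5 lower, where 19.5% of all genes passed (8.9% higher and 10.6% lower). In mesenteric nodes 1 was higher and 5 were lower, against 15.2% of all genes (7.87% and 7.31%). In peripheral nodes 1 was higher and 6 were lower, against 24.6% (13.1% and 11.4%).

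**Figure D1:**
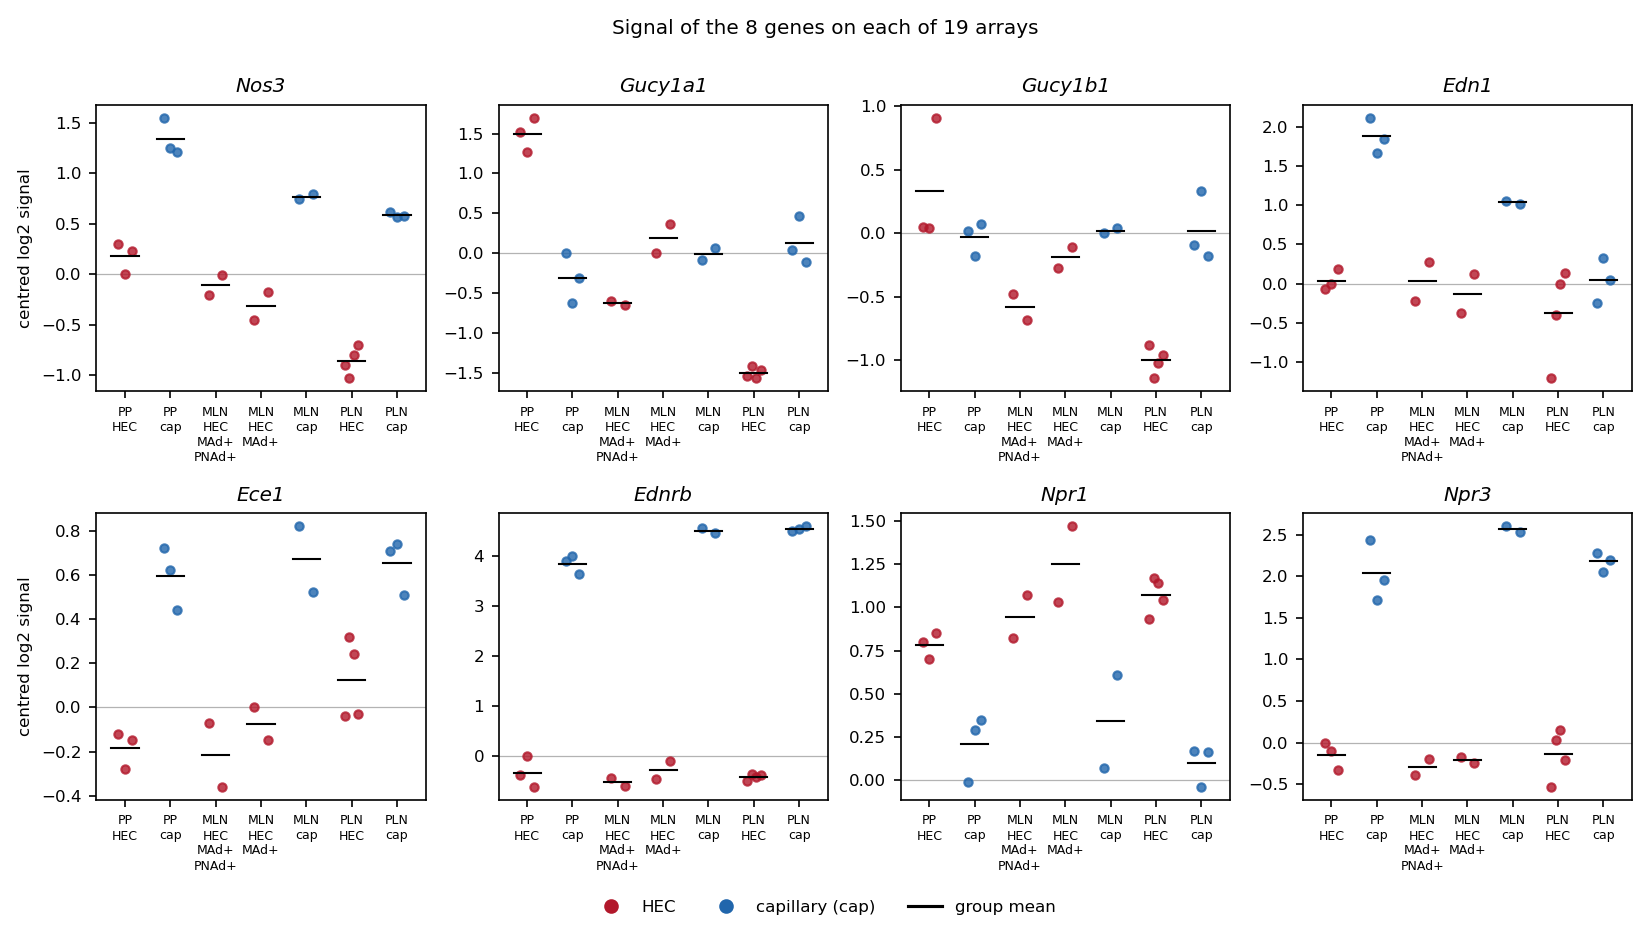
Each panel plots the centred log2 signal (vertical axis, scale of its own) of 1 gene on every array, by group: PP, Peyer's patches, MLN, mesenteric nodes, PLN, peripheral nodes, cap, capillary, and MAd+ and PNAd+, sorted as MAdCAM1+ and PNAd+. Points are arrays and bars are group means; Ednrb and Npr3 separate all HEC from all capillary arrays, while Gucy1a1 is 1.27 to 1.70 in Peyer's patch HEC and -1.57 to -1.41 in peripheral HEC.

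**Figure D2:**
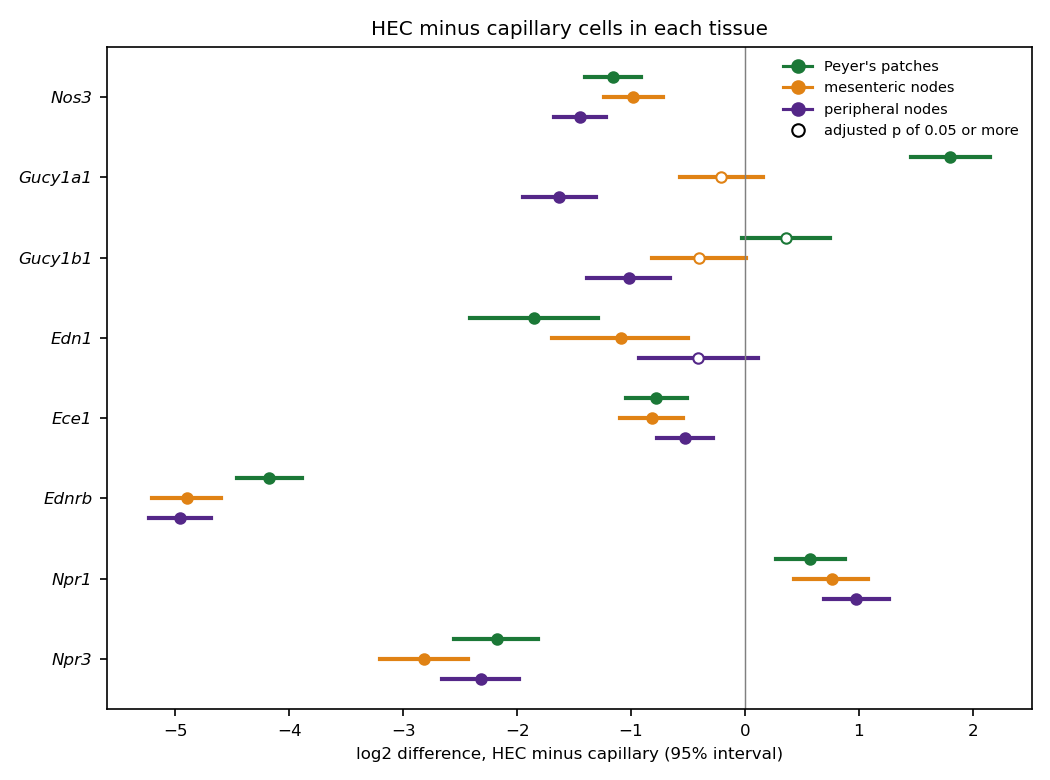
The horizontal axis gives the log2 difference of HEC minus capillary cells for each gene in each tissue, with 95% intervals; filled points passed the adjusted p threshold. Ednrb lies between -4.96 and -4.18 in the 3 tissues, and the Gucy1a1 difference is 1.80 in Peyer's patches and -1.63 in peripheral nodes.

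Nos3 was lower in HEC than in capillary cells in each tissue and, within both cell types, higher in Peyer's patches than in peripheral nodes. Its centred log2 signal was 0.30, 0.00 and 0.23 in Peyer's patch HEC and 1.55, 1.25 and 1.21 in Peyer's patch capillary cells. Mesenteric HEC had -0.21 and -0.01 in the MAdCAM1+/PNAd+ sort and -0.45 and -0.18 in the MAdCAM1+ sort, against 0.74 and 0.79 in mesenteric capillary cells. Peripheral HEC had -0.90, -1.03, -0.80 and -0.70, against 0.62, 0.57 and 0.58 in peripheral capillary cells. Every HEC array was below every capillary array, and in order of their means the 7 groups ran from peripheral HEC through mesenteric HEC and Peyer's patch HEC to peripheral, mesenteric and Peyer's patch capillary cells. Only the 2 mesenteric HEC sorts overlapped among neighbours in this order. The mean difference of HEC minus capillary cells was -1.20 ± 0.07 (2.29-fold lower, adjusted p = 1.66e-10), and by tissue it was -1.16 ± 0.12, -0.98 ± 0.12 and -1.45 ± 0.11 in Peyer's patches, mesenteric nodes and peripheral nodes.

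Nos3 also differed between tissues in both cell types. Peyer's patch HEC exceeded peripheral HEC by 1.04 ± 0.11 (adjusted p = 8.88e-06), and mesenteric HEC exceeded peripheral HEC by 0.65 ± 0.10 (adjusted p = 0.00124). Peyer's patch capillary cells exceeded peripheral capillary cells by 0.75 ± 0.12 (adjusted p = 0.000555). The difference between these 2 Peyer's patch contrasts was 0.29 ± 0.16 with a 95% interval of -0.05 to 0.63 (adjusted p = 0.326). Mesenteric minus peripheral capillary cells was 0.18 ± 0.13 and did not pass. Between this and the HEC value of 0.65 the difference was 0.47 ± 0.16, with a 95% interval of 0.12 to 0.82 (adjusted p = 0.486). A tissue effect on Nos3 that differs between HEC and capillary cells was thus not shown after adjustment, and neither was an equal one. Peyer's patch capillary cells also exceeded mesenteric capillary cells, by 0.57 ± 0.13 (adjusted p = 0.0275), but the call was lost without mesenteric capillary array 1 or 2, or Peyer's patch capillary array 1 or 2 (0.46 to 0.61, adjusted p of 0.0519 to 0.246). For Peyer's patch minus mesenteric HEC the Nos3 difference was 0.39 ± 0.11 (adjusted p = 0.104).

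Gucy1a1 and Gucy1b1, which encode the alpha 1 and beta 1 subunits of the nitric oxide receptor, are neighbours on mouse chromosome 3 with 0 genes between them in the RefSeq table, and their signals varied together over the arrays. RefSeq's GRCm38.p6 promoter table held windows for 7 of the 8 genes, all but Nos3, and 3 of them, those of Gucy1b1, Edn1 and Ece1, lay wholly outside the gene's own RefSeq record. The 250 bases before the start are shown for Gucy1b1 (chr3:82074712-82074961, minus strand) here and for Edn1 below, as genes of this kind whose signal differed between tissues. Capitals mark the letters GGGCGG, the GC box, on either strand.
Gucy1b1: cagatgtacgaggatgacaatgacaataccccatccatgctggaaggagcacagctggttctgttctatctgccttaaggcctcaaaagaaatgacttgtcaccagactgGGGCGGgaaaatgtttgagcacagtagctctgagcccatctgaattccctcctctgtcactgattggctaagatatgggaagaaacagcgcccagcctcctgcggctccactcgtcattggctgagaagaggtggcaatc
The window held 1 GC box, and 32.7% of 32851 windows of the same length held at least 1. The letters CACCC were not found on either strand. A search of both strands for AGATAA, a motif of Gata factors, found no match in this window, and neither did a search for TATAAA, the core of the promoter element of that name, or for TGANTCA, the AP-1 motif. These letters are a description of the sequence and were not tied to binding of any factor.

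Gucy1a1 was the gene of the 8 that differed most between tissues within HEC. It had 1.52, 1.27 and 1.70 in Peyer's patch HEC, -0.60 and -0.65 in MAdCAM1+/PNAd+ mesenteric HEC, -0.00 and 0.37 in MAdCAM1+ mesenteric HEC, and -1.54, -1.41, -1.57 and -1.47 in peripheral HEC. These 4 groups did not overlap. Capillary cells had 0.00, -0.62 and -0.31 in Peyer's patches, -0.09 and 0.07 in mesenteric nodes, and 0.04, 0.47 and -0.11 in peripheral nodes. These 3 groups overlapped. Peyer's patch minus peripheral capillary cells was -0.44 ± 0.16 (adjusted p = 0.188), and with array weights that difference passed at -0.53 (adjusted p = 0.041). Peyer's patch HEC exceeded peripheral HEC by 2.99 ± 0.15 (7.96-fold, adjusted p = 1.48e-09), the eighth of the 19938 genes by size of the moderated statistic. It was higher in Peyer's patch than in mesenteric HEC by 1.72 ± 0.15 (3.28-fold, adjusted p = 2.31e-05), and mesenteric HEC exceeded peripheral HEC by 1.28 ± 0.14 (2.42-fold, adjusted p = 3.54e-05).

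Set against capillary cells of the same tissue, Gucy1a1 was higher in HEC in Peyer's patches, by 1.80 ± 0.16 (3.49-fold, adjusted p = 2.35e-07), and lower in HEC in peripheral nodes, by -1.63 ± 0.15 (3.09-fold, adjusted p = 3.71e-07). In mesenteric nodes the difference was -0.21 ± 0.17 (adjusted p = 0.57). The change of the HEC-to-capillary difference between tissues was tested directly. It was 3.43 ± 0.22 for Peyer's patches minus peripheral nodes (adjusted p = 8.49e-08), 2.01 ± 0.24 for Peyer's patches minus mesenteric nodes (adjusted p = 0.000199) and 1.42 ± 0.23 for mesenteric minus peripheral nodes (adjusted p = 0.007). The last of these did not pass without mesenteric capillary array 1 (1.34, adjusted p = 0.073) or without peripheral capillary arrays 1 and 2 (1.18, adjusted p = 0.113).

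Gucy1b1 followed the same order of tissues in HEC with smaller steps. Peyer's patch HEC had 0.05, 0.04 and 0.91, the mesenteric sorts had -0.48 and -0.68 (MAdCAM1+/PNAd+) and -0.27 and -0.11 (MAdCAM1+), and peripheral HEC had -0.88, -1.14, -1.02 and -0.96. Array 3 of Peyer's patch HEC lay well above the other two. Capillary cells had 0.02, -0.18 and 0.07 in Peyer's patches, 0.00 and 0.04 in mesenteric nodes, and -0.09, 0.33 and -0.18 in peripheral nodes. The groups of capillary cells overlapped, and each peripheral HEC array was below every other array. Peyer's patch HEC exceeded peripheral HEC by 1.34 ± 0.17 (2.52-fold, adjusted p = 8.73e-05), and without Peyer's patch HEC array 3 by 1.05 (adjusted p = 7.34e-05).

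Mesenteric HEC exceeded peripheral HEC in Gucy1b1 by 0.62 ± 0.16 (adjusted p = 0.0481), a call lost in 15 of the 19 fits that left out 1 array, with adjusted p up to 0.177. The difference of Peyer's patch minus mesenteric HEC was 0.72 ± 0.17 (adjusted p = 0.055), and 0.43 without Peyer's patch HEC array 3 (adjusted p = 0.0614). In peripheral nodes Gucy1b1 was lower in HEC than in capillary cells by -1.02 ± 0.17 (adjusted p = 0.000279), while the difference was 0.36 ± 0.18 in Peyer's patches (adjusted p = 0.214) and -0.40 ± 0.20 in mesenteric nodes (adjusted p = 0.219). Without Peyer's patch HEC array 3 the Peyer's patch difference was 0.07 (adjusted p = 0.745), and the mesenteric one passed at -0.40 (adjusted p = 0.036), as it did with array weights (adjusted p = 0.0492) and in a fit of only the groups compared (adjusted p = 0.0342). The change of this difference between Peyer's patches and peripheral nodes was 1.38 ± 0.25 (adjusted p = 0.00377), and 1.19 without peripheral capillary arrays 1 and 2 (adjusted p = 0.0675). The mean over tissues, -0.36 ± 0.11 (adjusted p = 0.0148), likewise became -0.29 without those 2 arrays (adjusted p = 0.0833).

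**Figure D3:**
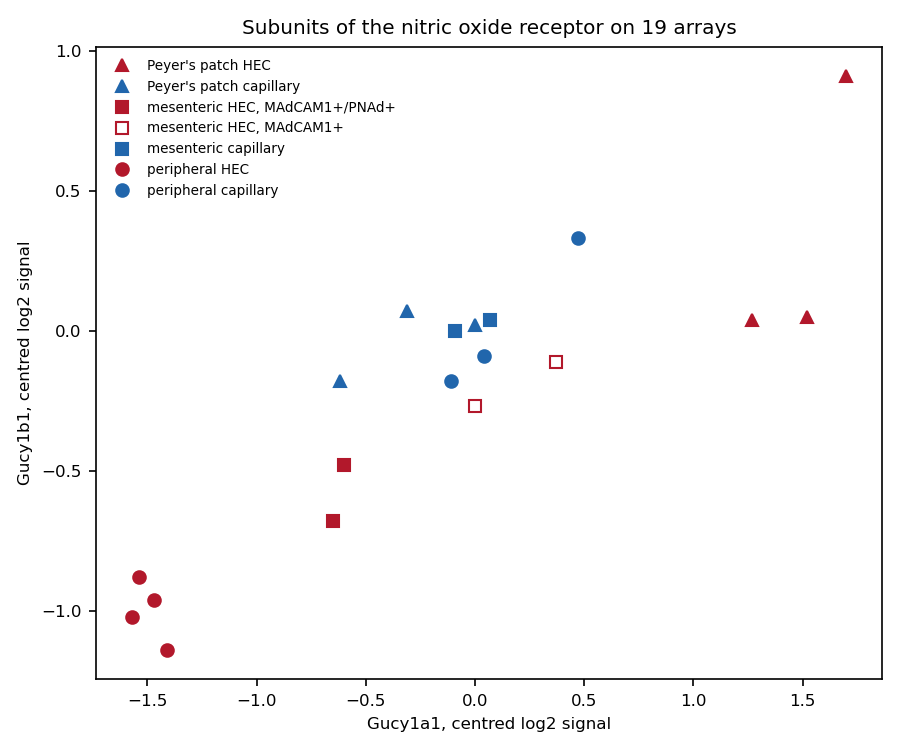
Each point is 1 of 19 arrays, with the centred log2 signal of Gucy1a1 on the horizontal and of Gucy1b1 on the vertical axis; colour gives the cell type and shape the tissue. Peripheral HEC sit at the lower left (Gucy1a1 -1.57 to -1.41) and Peyer's patch HEC at the right (1.27 to 1.70), with the mesenteric HEC and all capillary arrays between them.

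Over the 19 arrays, Pearson's r between Gucy1a1 and Gucy1b1 was 0.88 and Spearman's rho 0.85, and over the 11 HEC arrays both were 0.94. Over the 8 capillary arrays r was 0.74 and rho 0.57, and here peripheral capillary array 2, with the highest pericyte, lymphatic, myeloid and stromal signal, was also the highest array of both genes. These values describe arrays that share groups, so they carry no test. Nos3 also ran with Gucy1a1 over the HEC arrays (r = 0.89, rho = 0.86) but not over the capillary arrays (r = -0.52, rho = -0.48).

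Soluble guanylate cyclase is also abundant in pericytes and smooth muscle, and marker genes of other cells moved with some of these comparisons. The 12 pericyte and smooth muscle genes had a mean centred log2 signal of -0.71 to -0.45 in Peyer's patch HEC, -0.50 to -0.36 in mesenteric HEC and -0.76 to -0.69 in peripheral HEC, and 0 of the 12 passed between Peyer's patch and peripheral HEC in either direction, while 1 was higher and 0 lower in mesenteric than in peripheral HEC. In capillary cells the same list had -0.15 to 0.11 in Peyer's patches, 0.38 to 0.46 in mesenteric nodes and 0.33 to 0.99 in peripheral nodes, with 1 gene higher and 5 lower in Peyer's patch than in peripheral capillary cells. In the change of the HEC-to-capillary difference between Peyer's patches and peripheral nodes, 6 of the 12 were higher and 0 lower. Over the mean of tissues, 2 were higher and 9 lower in HEC than in capillary cells. Their part in the Gucy1a1 and Gucy1b1 differences was not tested.

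Intestinal epithelial genes also differed with tissue. Their mean over 8 genes was 0.46 to 0.79 in Peyer's patch HEC and -0.28 to -0.07 in peripheral HEC, and 7 of the 8 were higher in Peyer's patch HEC. In capillary cells the epithelial mean was 0.17 to 1.01 in Peyer's patches and -0.05 to 0.12 in peripheral nodes, with 1 of the 8 higher and 0 lower in Peyer's patches. Of 5 B cell genes 2 were lower, and of 4 T cell genes 3 were lower, in Peyer's patch than in peripheral HEC. Over the mean of tissues, 4 of the 5 B cell and 3 of the 4 T cell genes were higher in HEC than in capillary cells and 0 were lower. The part of these cells in the tissue differences and in the differences between cell types was not tested.

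Edn1 differed between tissues in capillary cells. It had -0.07, -0.01 and 0.18 in Peyer's patch HEC and 2.12, 1.67 and 1.85 in Peyer's patch capillary cells. Mesenteric HEC had -0.22 and 0.28 (MAdCAM1+/PNAd+) and -0.38 and 0.12 (MAdCAM1+), against 1.06 and 1.02 in mesenteric capillary cells. Peripheral HEC had -1.21, -0.40, 0.00 and 0.13, a wide spread set by array 1, against -0.25, 0.33 and 0.04 in peripheral capillary cells. The 4 HEC groups and peripheral capillary cells overlapped, and mesenteric and Peyer's patch capillary cells stood above them in turn. The 250 bases before the Edn1 start (chr13:42301226-42301475, plus strand, GRCm38.p6) are shown with the letters CACCC in capitals, on either strand.
Edn1: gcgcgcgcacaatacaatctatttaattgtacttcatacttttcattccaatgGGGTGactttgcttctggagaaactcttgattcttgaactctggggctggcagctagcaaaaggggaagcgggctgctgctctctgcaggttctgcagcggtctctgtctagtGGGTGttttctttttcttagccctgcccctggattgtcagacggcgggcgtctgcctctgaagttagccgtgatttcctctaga
CACCC occurred 2 times in this window, and at least 1 time in 52.0% of the 32851 windows. None of the GC box, AP-1, Gata and TATA-type letters given above were found in it, and 32.7%, 6.75%, 9.99% and 12.4% of windows held them. As with Gucy1b1, this describes the sequence only.

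Endothelin-1 mRNA was thus lower in HEC by -1.85 ± 0.27 in Peyer's patches (3.60-fold, adjusted p = 5.11e-05) and by -1.09 ± 0.28 in mesenteric nodes (2.13-fold, adjusted p = 0.0117), and the difference in peripheral nodes was -0.41 ± 0.25 (adjusted p = 0.241). The peripheral value was -0.13 without HEC array 1 (adjusted p = 0.657) and -0.27 without capillary array 2 (adjusted p = 0.589). The mesenteric call was lost without capillary array 1 (adjusted p = 0.0993) or capillary array 2 (adjusted p = 0.073). The mean of tissues was -1.12 ± 0.15 (adjusted p = 1.46e-05). Peyer's patch capillary cells exceeded peripheral capillary cells by 1.84 ± 0.27 (3.58-fold, adjusted p = 0.000276), whereas Peyer's patch HEC minus peripheral HEC was 0.40 ± 0.25 (adjusted p = 0.317), and 0.12 without peripheral HEC array 1 (adjusted p = 0.704). The difference between these 2 contrasts, HEC minus capillary, was -1.44 ± 0.36 (adjusted p = 0.0329). It lost its call in 9 of 19 fits that left out 1 array, with adjusted p up to 0.0878. A fit of only the groups compared also lost it (adjusted p = 0.0525). Without peripheral capillary arrays 1 and 2, which leaves 1 array in that group, the value was -1.43 and did not pass. Mesenteric minus peripheral capillary cells was 1.00 ± 0.30 (adjusted p = 0.325), and Peyer's patch minus mesenteric capillary cells 0.84 ± 0.30 (adjusted p = 0.276).

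Over the 8 capillary arrays Edn1 ran with Nos3 (r = 0.92, rho = 0.86) and opposite to Ednrb (r = -0.84, rho = -0.74). A list of 7 arterial genes had a mean centred log2 signal of 2.57 to 2.64 in Peyer's patch capillary cells and 1.88 to 1.95 in peripheral capillary cells, with 3 of the 7 higher and 0 lower. On HEC arrays that mean was -0.69 to -0.43, and 7 of 7 were lower in HEC than in capillary cells over the mean of tissues. The part of arterial cells in the Edn1 and Nos3 differences was not tested.

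Ece1, the endothelin-converting enzyme, was lower in HEC in each tissue, by under 1 on the log2 scale. It had -0.12, -0.28 and -0.15 in Peyer's patch HEC against 0.72, 0.62 and 0.44 in Peyer's patch capillary cells, -0.07, -0.36, 0.00 and -0.15 in mesenteric HEC against 0.82 and 0.52 in mesenteric capillary cells, and -0.04, 0.32, 0.24 and -0.03 in peripheral HEC against 0.71, 0.74 and 0.51 in peripheral capillary cells. No HEC array reached the lowest capillary array. The mean difference was -0.71 ± 0.07 (1.63-fold lower, adjusted p = 4.06e-07), and by tissue it was -0.78 ± 0.12, -0.82 ± 0.13 and -0.53 ± 0.12, in the order given above. The peripheral difference became -0.38 without peripheral capillary arrays 1 and 2 and did not pass (adjusted p = 0.181). Peyer's patch HEC minus peripheral HEC was -0.31 ± 0.12 (adjusted p = 0.124).

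Ednrb, the endothelin B receptor, separated the 2 cell types more clearly than any other gene on the arrays by the moderated statistic over the mean of tissues. Its signal was -0.37, 0.00 and -0.61 in Peyer's patch HEC and 3.90, 4.01 and 3.64 in Peyer's patch capillary cells. Mesenteric HEC had -0.44 and -0.59 (MAdCAM1+/PNAd+) and -0.46 and -0.10 (MAdCAM1+), against 4.56 and 4.46 in mesenteric capillary cells. Peripheral HEC had -0.49, -0.36, -0.41 and -0.38, against 4.50, 4.55 and 4.60 in peripheral capillary cells. The HEC groups overlapped one another and were far from every capillary array. HEC minus capillary cells was -4.68 ± 0.08 (25.6-fold lower, adjusted p = 1.32e-16), ranking first of 19938 genes, and by tissue it was -4.18 ± 0.13, -4.90 ± 0.14 and -4.96 ± 0.13, ranking 7, 2 and 1.

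Within capillary cells Ednrb was lower in Peyer's patches than in peripheral nodes by -0.70 ± 0.13 (1.62-fold, adjusted p = 0.0036), and the 2 groups did not overlap. Without peripheral capillary arrays 1 and 2 it was -0.74 (adjusted p = 0.0911). Against mesenteric capillary cells the difference was -0.65 ± 0.15 (adjusted p = 0.0288), which was lost without mesenteric capillary array 1 or 2 or Peyer's patch capillary array 1 or 3 (adjusted p of 0.0532 to 0.283), and which moved to -0.33 when the arrays were quantile-normalised again (adjusted p = 0.512). The HEC-to-capillary difference changed by 0.78 ± 0.18 between Peyer's patches and peripheral nodes (adjusted p = 0.0216). That call was lost without peripheral capillary array 2 (adjusted p = 0.0516) or 3 (adjusted p = 0.0505), or Peyer's patch capillary array 3 (0.68, adjusted p = 0.0627). It was also lost without array 1 of both peripheral groups (0.78, adjusted p = 0.053). Without peripheral capillary arrays 1 and 2, which leaves 1 array in that group, the change was 0.83 and did not pass.

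Npr1 was the 1 gene of the 8 that was higher in HEC in each tissue. It had 0.80, 0.70 and 0.85 in Peyer's patch HEC against -0.01, 0.29 and 0.35 in Peyer's patch capillary cells. Mesenteric HEC had 0.82 and 1.07 (MAdCAM1+/PNAd+) and 1.03 and 1.47 (MAdCAM1+), against 0.07 and 0.61 in mesenteric capillary cells. Peripheral HEC had 0.93, 1.17, 1.14 and 1.04, against 0.17, -0.04 and 0.16 in peripheral capillary cells. The highest capillary array, mesenteric array 2, lay just under the lowest HEC array, of Peyer's patches. The mean difference was 0.77 ± 0.08 (1.70-fold, adjusted p = 9.19e-07), and by tissue it was 0.57 ± 0.14 (adjusted p = 0.00823), 0.76 ± 0.15 (adjusted p = 0.00185) and 0.97 ± 0.14 (adjusted p = 3.66e-05). Without mesenteric capillary array 1 the mesenteric difference was 0.48 (adjusted p = 0.111). Between tissues, no Npr1 difference within a cell type passed, with -0.31 ± 0.14 for Peyer's patch minus mesenteric HEC (adjusted p = 0.364) as the widest. With array weights that difference passed at -0.29 (adjusted p = 0.0177).

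Npr3, the clearance receptor, went the other way from Npr1. It had -0.00, -0.10 and -0.33 in Peyer's patch HEC against 2.44, 1.72 and 1.96 in Peyer's patch capillary cells. Mesenteric HEC had -0.39 and -0.19 (MAdCAM1+/PNAd+) and -0.17 and -0.24 (MAdCAM1+), against 2.60 and 2.53 in mesenteric capillary cells. Peripheral HEC had -0.53, 0.03, 0.15 and -0.21, against 2.28, 2.05 and 2.20 in peripheral capillary cells. The HEC groups overlapped, and among capillary cells the mesenteric arrays were the highest. The mean difference was -2.44 ± 0.10 (5.43-fold lower, adjusted p = 2.56e-12), and by tissue it was -2.18 ± 0.17, -2.82 ± 0.18 and -2.32 ± 0.16. No Npr3 difference between tissues within a cell type passed, with Peyer's patch minus mesenteric capillary cells at -0.53 ± 0.19 (adjusted p = 0.307). That difference did pass after the arrays were quantile-normalised again (-0.82, adjusted p = 0.0172) and without Peyer's patch capillary array 1 (-0.73, adjusted p = 0.0498).

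Ednrb and Npr3 ran together over the 19 arrays (r = 0.98, rho = 0.85), where both separate the cell types, while over the 11 HEC arrays r was 0.27 and over the 8 capillary arrays 0.44.

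**Figure D4:**
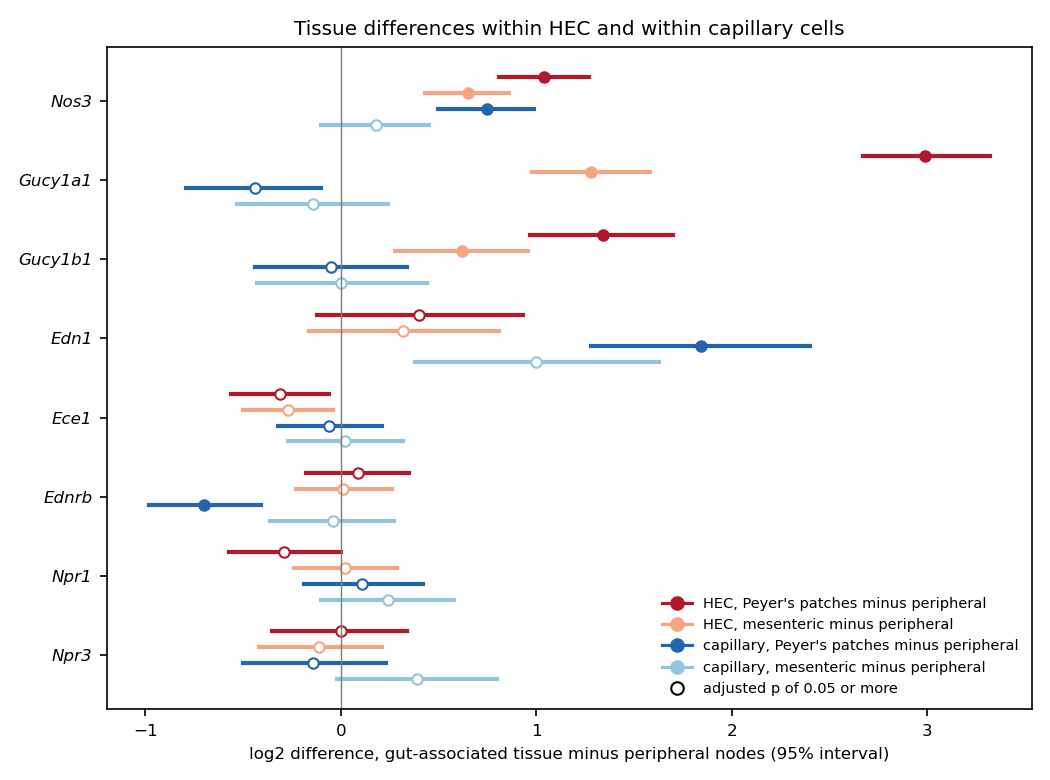
The horizontal axis gives the log2 difference of Peyer's patches or mesenteric nodes minus peripheral nodes within HEC and within capillary cells, with 95% intervals; filled points passed the adjusted p threshold. Gucy1a1 and Gucy1b1 differ in HEC (2.99 and 1.34 for Peyer's patches), Edn1 and Ednrb in capillary cells (1.84 and -0.70), and Nos3 in both (1.04 and 0.75).

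Counted by tissue comparison, the genes of the nitric oxide group made up the calls in HEC. Between Peyer's patch and peripheral HEC, 3 of the 8 genes were higher and 0 lower, namely Nos3, Gucy1a1 and Gucy1b1, where 6.65% of all genes passed (2.16% higher and 4.49% lower). The same 3 were higher in mesenteric than in peripheral HEC, where 2.69% of all genes passed (0.722% higher and 1.97% lower). In Peyer's patch against mesenteric HEC, Gucy1a1 alone was higher and 0 were lower, where 1.2% passed (0.557% higher and 0.642% lower). In capillary cells, Nos3 and Edn1 were higher and Ednrb lower in Peyer's patches than in peripheral nodes, against 4.64% of all genes (2.4% higher and 2.24% lower). Nos3 was higher and Ednrb lower in Peyer's patches than in mesenteric nodes, against 1.86% (1.02% higher and 0.833% lower). Between mesenteric and peripheral capillary cells limma called 0 of the 8, against 0.291% of all genes (0.12% higher and 0.171% lower), and 1, Edn1, had an unadjusted p under 0.05. The HEC-to-capillary difference was greater in Peyer's patches than in peripheral nodes, as a signed value, for 3 of the 8 (Gucy1a1, Gucy1b1 and Ednrb) and less for 1 (Edn1), against 4.05% of all genes (1.69% and 2.37%). For Gucy1a1 alone it was greater in mesenteric than in peripheral nodes, against 0.416% of all genes (0.145% greater and 0.271% less), and in Peyer's patches than in mesenteric nodes, against 0.752% (0.316% and 0.436%). Comparisons that name the same group share its arrays.

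Between the 2 mesenteric sorts, MAdCAM1+/PNAd+ minus MAdCAM1+, limma called 0 of the 8 genes, against 0.0201% of all genes, and 1 had an unadjusted p under 0.05. This was Gucy1a1, at -0.81 ± 0.20 with a 95% interval of -1.23 to -0.39 and adjusted p = 0.549, and its 2 arrays of the first sort lay below the 2 of the second. Gucy1b1 lay the same way, at -0.39 ± 0.23 (adjusted p = 1.00). With 2 arrays in each sort the comparison had little precision. The MAdCAM1+/PNAd+ arrays are numbered 1 and 2 and the MAdCAM1+ arrays 3 and 4, so anything tied to these numbers cannot be told apart from the gate. The mean of the 7 capillary genes was -1.01 and -0.94 in the first sort and -0.57 and -0.31 in the second. Of these genes 0 passed, and their part in the Gucy1a1 difference was not tested.

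The patterns most like each of the 8 genes were sought by Pearson's r over the 19 arrays among 17168 genes. The nearest to Nos3 were Acer2 (r = 0.968), Zfp503 (r = 0.954) and Mgll (r = 0.952). For Gucy1a1 the nearest of all was its partner subunit Gucy1b1 (r = 0.879), followed by Kcnip3 (r = 0.864) and Reg4 (r = 0.863), and for Gucy1b1 they were Rgs16 (r = 0.880), Gucy1a1 and Usp2 (r = 0.877). Edn1 was nearest to Slc46a3 (r = 0.930), Slc43a3 (r = 0.927) and Scgb3a1 (r = 0.913). The highest correlations were those of the genes that differed most between the cell types, where Ednrb had Tgfb2 (r = 0.996), Cdh13 (r = 0.993) and Clic5 (r = 0.993), and Npr3 had Akap12 (r = 0.993), Pdgfb (r = 0.989) and Gpihbp1 (r = 0.988). Ece1 was nearest to Inpp5k (r = 0.967), Dab2 (r = 0.966) and Nr4a2 (r = 0.964), and Npr1 to Selenos (r = 0.947), Lamp1 (r = 0.943) and Rpn1 (r = 0.938). Spearman's rho of these pairs ran from 0.675 (Gucy1b1 with Usp2) to 0.979 (Nos3 with Acer2). For Ednrb with Cdh13 it was 0.818, and for Edn1 with Slc43a3 0.714. The arrays fall into the same groups for every gene, so these values are a description.

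Of 45 other genes of the 3 systems, 8 were higher and 13 lower in HEC than in capillary cells over the mean of tissues, where 33.9% of all genes passed, and their median difference was -0.10. In the list on nitric oxide synthesis and its substrate 4 of 15 were higher and 6 lower, and in that on cyclic GMP signalling and breakdown 2 of 14 and 5. Of 6 endothelin genes 2 were higher and 0 lower, and of 10 natriuretic peptide genes 0 were higher and 2 lower. The genes of the lists were chosen with results on these arrays known.

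The highest differences were those of 2 phosphodiesterases that break down cyclic nucleotides, Pde1b at 1.96 ± 0.05 (adjusted p = 5.52e-15) and Pde9a at 1.26 ± 0.08 (adjusted p = 1.51e-09). Gchfr, which encodes an inhibitor of the enzyme that starts synthesis of a cofactor of nitric oxide synthases, was higher by 0.81 ± 0.10, and Mme, the peptidase neprilysin, by 0.54 ± 0.14. Of the HEC groups, Mme was high in the peripheral one only (1.52 to 2.05). In Peyer's patches HEC had -0.30, 0.33 and -0.34 of Mme, against -0.30, 0.45 and 0.94 in capillary cells. Mesenteric HEC had -0.32 to -0.11, against -0.44 and -0.36. The lowest were Npr2, the receptor for C-type natriuretic peptide, at -1.71 ± 0.08 (adjusted p = 9.50e-12), Ddah2, whose product breaks down an endogenous inhibitor of nitric oxide synthases, at -1.64 ± 0.07, Nos2, the inducible synthase, at -1.35 ± 0.07, and the phosphodiesterase Pde3a at -0.90 ± 0.09. Npr2 thus lay with Npr3 on the capillary side and apart from Npr1.

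**Figure D5:**
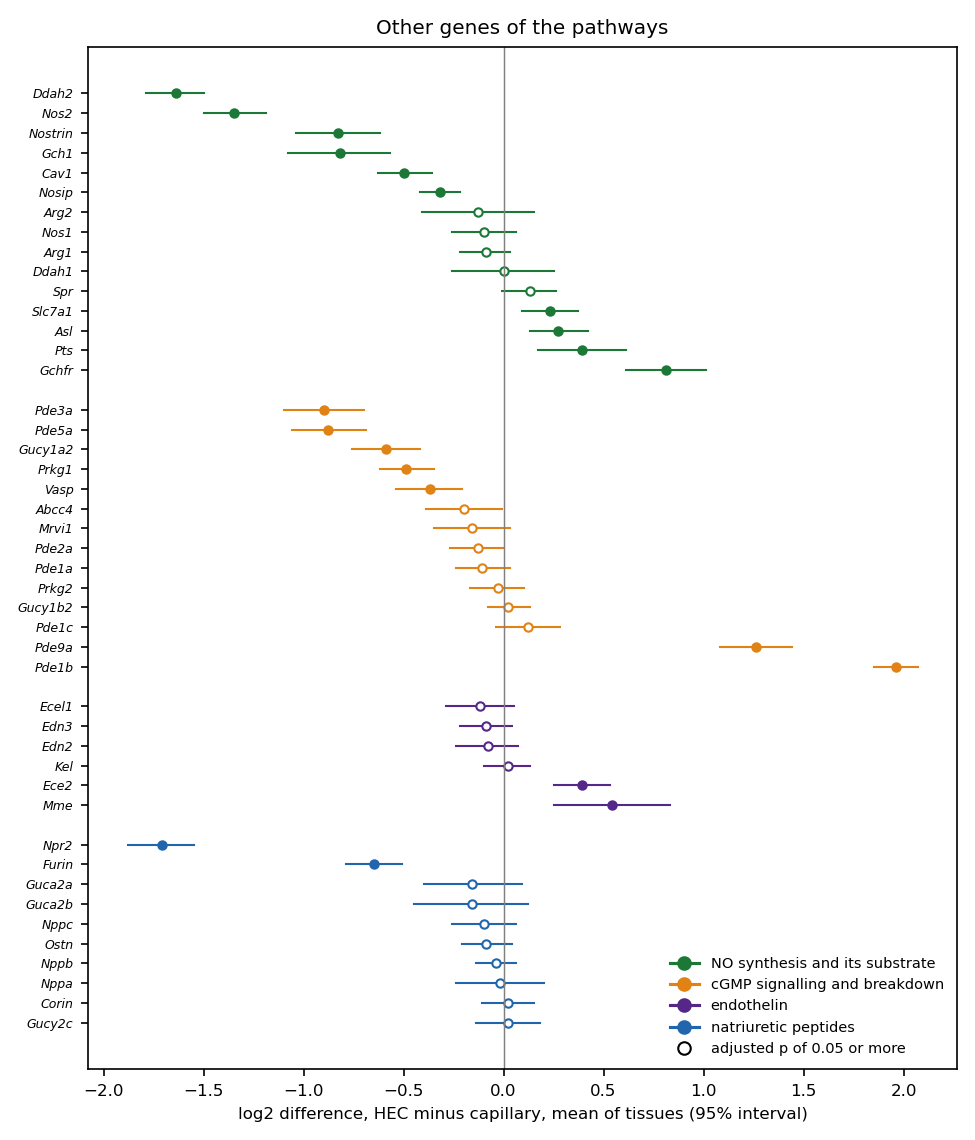
Each row is 1 of the 45 other genes, grouped by list, with the log2 difference of HEC minus capillary cells over the mean of tissues on the horizontal axis and its 95% interval; filled points passed the adjusted p threshold. Pde1b (1.96) and Pde9a (1.26) lie farthest to the right, and Npr2 (-1.71), Ddah2 (-1.64) and Nos2 (-1.35) farthest to the left; Mrvi1 is the array's name for Irag1.

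Between tissues, 4 of the 45 were higher and 4 lower in Peyer's patch than in peripheral HEC, against 6.65% of all genes (2.16% higher and 4.49% lower). Pde1c differed by -1.95 ± 0.12 (adjusted p = 2.46e-08) and Mme by -1.91 ± 0.23, while Ddah1, a homologue of Ddah2, was higher by 1.20 ± 0.20 and Abcc4, a transporter that exports cyclic nucleotides, by 1.12 ± 0.15. In mesenteric against peripheral HEC, 2 were higher and 4 lower, against 2.69% of all genes (0.722% higher and 1.97% lower). These included Mme at -2.03 ± 0.21 and Pde1c at -1.21 ± 0.11, with Abcc4 at 0.65 ± 0.14 and the sepiapterin reductase gene Spr at 0.40 ± 0.10. In Peyer's patch against mesenteric HEC, 0 were higher and 3 lower, against 1.2% of all genes (0.557% higher and 0.642% lower). Among the 3 were Pde1c at -0.73 ± 0.12 and Pde1b at -0.60 ± 0.08.

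In capillary cells, 4 of the 45 were higher and 5 lower in Peyer's patches than in peripheral nodes, against 4.64% of all genes (2.4% higher and 2.24% lower). Pde1c was again the lowest at -1.68 ± 0.13 (adjusted p = 3.52e-07), followed by Nostrin, a binding partner of the endothelial synthase, at -0.78 ± 0.17, and Abcc4 and Pde9a were higher by 1.21 ± 0.16 and 1.11 ± 0.14. Against mesenteric capillary cells 2 were higher (Pde9a, 0.98 ± 0.16, and Abcc4, 0.92 ± 0.18) and 3 lower, including Npr2 at -0.82 ± 0.15 and Pde1c at -0.76 ± 0.15. Of all genes 1.86% passed there (1.02% higher and 0.833% lower). Mesenteric minus peripheral capillary cells gave 1 call of 45, against 0.291% of all genes, and this was Pde1c at -0.92 ± 0.15 (adjusted p = 0.00914). The 2 mesenteric sorts gave 0 of 45, against 0.0201%.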

How the data were processed

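Per the labels' protocols, RNA of the sorted cells was amplified, labelled as cDNA and read on Affymetrix arrays. The deposited values are log2 signals for which the submitters' processing notes name RMA and Partek without versions. They had been centred for each probe set on a baseline not given in the sources used here: the lowest was -4.092, the highest 6.128, and an exact 0 stood in 54.47% of the probe sets. Signal over background is therefore unknown, and RMA compresses large folds. The number of arrays limits the precision.

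The platform annotation gave 1 symbol for 21789 of the 28856 probe sets, while 1621 had several and were not named, and 5446 were unnamed here. The mean was taken over the probe sets of a gene, which gave 19938 genes. Groups came from the sample titles. limma 3.58.1 in R 4.3.3 fitted 1 mean for each of 7 groups to all 19 arrays (lmFit and eBayes, 12 residual degrees of freedom, prior 4.62 with SD 0.145), and 14 contrasts were tested with Benjamini-Hochberg adjustment over all genes at 0.05. Mesenteric HEC is the mean of its 2 sorts. The labels give no batch, slide or scan date. The fit was tested on simulated data of 19938 genes: for HEC of Peyer's patches against peripheral nodes it recovered 100 of 100 genes with a log2 change of 1 and 100 of 100 with -2, and made 7 false calls. The simulated noise was independent and normal, with the same spread for a gene on every array, as the model assumes. This checks that the code runs as meant and not how well the calls hold on the real arrays.

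The 8 genes and the lists were chosen with earlier results of these data known. From the pathway lists (45 of 47 genes measured; Ednra and Ass1 were not analysed here), the text names the 4 highest and 4 lowest called differences in HEC against capillary cells and up to 2 each way elsewhere, and for likeness the 3 highest correlations, leaving out predicted genes, small RNAs and chemosensory receptors. Alternatives were a block for replicate number, leaving out each array, other rules for probe sets, normalization, centring, array weights, a robust prior, a filter on range, fits without some peripheral arrays, and fits of only the groups compared. Promoter windows were taken from RefSeq tables of GRCm38.p6. Figures were drawn with matplotlib 3.10.9.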

Additional observations from a re-analysis of the deposited data

Results flagged for a closer look

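Differences between HEC and capillary cells that changed with tissue, by the interaction term of the limma model, were marked for a closer look. For Gucy1a1 the change was 3.43 between Peyer's patches and peripheral nodes, 2.01 between Peyer's patches and mesenteric nodes and 1.42 between mesenteric and peripheral nodes. In the first of these the HEC-to-capillary difference had opposite signs in the 2 tissues, 1.80 in Peyer's patches and -1.63 in peripheral nodes. For Gucy1b1 the change between Peyer's patches and peripheral nodes was 1.38, with differences of 0.36 in Peyer's patches, which did not pass and was 0.07 without HEC array 3, and -1.02 in peripheral nodes. For Edn1 it was -1.44, with differences of -1.85 in Peyer's patches and -0.41 in peripheral nodes, and for Ednrb it was 0.78, with differences of -4.18 in Peyer's patches and -4.96 in peripheral nodes. The mean signal of the pericyte and smooth muscle list was -0.15 to 0.11 in Peyer's patch capillary cells and 0.33 to 0.99 in peripheral capillary cells, and its part in these changes was not tested. By Dixon's 95% criterion none of the 8 genes had an outlying array in peripheral HEC, the 1 group of 4 arrays; this includes Edn1, where array 1 was -1.21 and the others -0.40, 0.00 and 0.13.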

How the results depend on the processing

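Each of 72 differences of the 8 genes was recomputed under 29 alternatives. These were the differences that passed or were at least 0.3 in size on the log2 scale, with the mean Gucy1a1 difference added. Smaller differences that did not pass were not followed, so changes of sign among them were not counted. Of 45 that passed, 33 passed under every alternative run and 12 were lost under 1 or more; each of these 12 is named with its values in the text above. Of the differences followed, the one that changed sign was the mean Gucy1a1 difference of HEC minus capillary cells, which is near 0: it was 0.05 with array weights, 0.07 without peripheral capillary arrays 1 and 2, and -0.06 to 0.05 when single arrays were left out. With array weights Ece1 (-0.25, adjusted p = 0.00677) passed too in Peyer's patch against peripheral HEC, as did a difference under 0.3 that was not followed. The count of genes called there was then 5, in place of 3. For Peyer's patch against mesenteric HEC it was 4 with array weights, 2 with the filter on range and 1 to 2 with single arrays left out, in place of 1. With the filter Gucy1b1 passed too (adjusted p = 0.0344), and with array weights Gucy1b1 (0.44), Nos3 (0.51) and Npr1 (-0.29) did. For Peyer's patch against mesenteric capillary cells it was 1 without array 1 of both peripheral groups, 1 in a fit of only the groups compared (in both, Nos3 and Ednrb were lost and Edn1 passed, with adjusted p of 0.0423 and 0.0489), and 0 to 2 with single arrays left out, in place of 2. The number of genes whose HEC-to-capillary difference changed between Peyer's patches and peripheral nodes was 1 without peripheral capillary arrays 1 and 2 and 2 to 4 with single arrays left out, in place of 4. Between mesenteric and peripheral nodes it was 0 without those 2 arrays and 0 to 1 with single arrays left out, in place of 1. For Peyer's patches against mesenteric nodes it was 4 with array weights and 1 to 2 with single arrays left out, in place of 1. The cause of these changes was not tested beyond the fewer arrays in fits that leave arrays out. The deviations of same-numbered arrays of different groups from their group means had r of -0.426 to 0.556 (median 0.083 over 41 pairs). Those of different-numbered arrays had r of -0.582 to 0.608 (median -0.013 over 112 pairs). The labels do not state that the numbers mark pairs, so they were not taken as pairs, and a shared sort or batch was not tested. With the replicate block 1 call was lost, that of Gucy1b1 in mesenteric against peripheral HEC (0.62, adjusted p = 0.0648). Signal over background is unknown for these centred values, and groups of 2 to 4 arrays limit what could be called.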

Other observations

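Mme, which encodes neprilysin, a membrane peptidase known to degrade natriuretic peptides and endothelin, was high in 1 of the 7 groups. Its centred log2 signal was 1.52, 1.76, 1.92 and 2.05 in peripheral HEC and -0.20, 0.17 and -0.23 in peripheral capillary cells, and the difference was 1.90 ± 0.23 (adjusted p = 6.17e-06). The other groups lay between -0.44 and 0.94. The HEC-to-capillary difference of Mme changed by -2.37 ± 0.33 between Peyer's patches and peripheral nodes (adjusted p = 0.000355) and by -1.72 ± 0.34 between mesenteric and peripheral nodes (adjusted p = 0.0314).

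Npr2 was lower in HEC than in capillary cells by -2.48 ± 0.14 in mesenteric nodes (adjusted p = 1.06e-09) and by -1.53 ± 0.13 in Peyer's patches (adjusted p = 1.50e-07). That difference changed by 0.95 ± 0.19 between Peyer's patches and mesenteric nodes (adjusted p = 0.0266) and by -1.36 ± 0.19 between mesenteric and peripheral nodes (adjusted p = 0.00186). Pde1c, a phosphodiesterase of both cyclic GMP and cyclic AMP, went with tissue in both cell types. It had -0.03, 0.10 and 0.07 in Peyer's patch HEC and 1.97, 1.72, 2.20 and 2.08 in peripheral HEC, and 0.16, -0.03 and -0.11 in Peyer's patch capillary cells and 1.98, 1.50 and 1.59 in peripheral capillary cells. For the tissue-by-cell-type change between Peyer's patches and peripheral nodes, Pde9a gave -1.07 ± 0.20 (adjusted p = 0.00408) and Pde3a 0.89 ± 0.22 (adjusted p = 0.0332).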
